A study of Saccharomyces cerevisiae with 8 samples.

Results

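The cell integrity pathway of budding yeast was examined through 10 genes of its kinase cascade and transcription factors, named by gene symbol: ROM2, PKC1, BCK1, MKK1, MKK2, SLT2, RLM1, SWI4, SWI6 and KDX1. All 10 were measured, each by 1 probe set of a single gene, among 5656 named genes and 9275 probe sets tested. The data are 8 arrays of total RNA from haploid Saccharomyces cerevisiae of the W303a background, 1 array per sample, from cultures in early logarithmic growth at 25 °C. In both groups the labels give disruption of both native eIF5A genes, HYP2 and ANB1, and a plasmid that carries human EIF5A1. The 4 control samples (wild-type) are titled biological replicates of a control strain. It carries the unmutated human protein and is labelled as growing normally. The 4 mutant samples (V81G) are titled biological replicates of a mutant strain. That strain carries the V81G point mutant and is labelled temperature sensitive. The temperature used is permissive, and the series design calls the strains isogenic, so the comparison asks how transcripts differ between strains with these 2 forms of eIF5A. eIF5A is a translation factor activated by hypusine, a modified lysine.

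The cell integrity pathway keeps the yeast wall intact during growth and under wall stress. Sensor proteins in the plasma membrane activate the GTPase Rho1 through the exchange factors Rom1, Rom2 and Tus1, and Rho1 activates the protein kinase C homologue Pkc1. Pkc1 starts a mitogen-activated protein (MAP) kinase cascade in which Bck1 activates the redundant kinases Mkk1 and Mkk2, and these activate the MAP kinase Slt2. Slt2 acts on Rlm1, a transcription factor for wall genes, and on SBF, the complex of Swi4 and Swi6 that drives transcription at the start of the cell cycle. SLT2 itself and KDX1, which encodes an Slt2-like protein, are known targets of Rlm1. Activity of the kinases depends on phosphorylation, which arrays do not measure.

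Values are log2 of the deposited probe-set intensities, and differences are the mean of the arrays labelled V81G minus the mean of those labelled wild-type, with the standard error (SE) from limma. A gene was called higher (rose) or lower (fell) at a Benjamini-Hochberg adjusted p under 0.05 over all 9275 probe sets. Levels of different genes come from different probes and cannot be compared with each other. The median intensity of an array lay between 1098 and 1189, and the precision of each comparison rests on the small number of arrays (4 per group). Run sheets place replicates 1 and 2 of both groups on hybridization day 1 and replicates 3 and 4 on day 2, and day-specific differences rest on 2 arrays against 2. HYP2, labelled as disrupted, read 15.42 ± 0.01 (SD, n = 4) on the wild-type arrays, close to the maximum over all arrays of 15.43. On the arrays labelled V81G it read 12.02 ± 0.23 (n = 4). The other native gene, ANB1, also labelled as disrupted, read 14.18 ± 0.20 and 14.04 ± 0.13 (SD, n = 4 each) on V81G and wild-type arrays. All 8 arrays thus gave both genes values above the array medians of 10.10 to 10.22. HYP2 differed by -3.41 ± 0.14 between the groups (limma adjusted p = 1.08e-06), V81G minus wild-type. Its level near the maximum on the wild-type arrays does not show the labelled disruption. Positions beside the median come from different probes and do not settle whether either gene is disrupted in either group. Groups are called by their labels below. The final letter of the background strain's name stands for mating type a, and the markers of mating type were mixed. Of 4 genes specific to mating type alpha, SAG1, STE3 and MF(ALPHA)1 lay above the array median on all 8 arrays and MF(ALPHA)2 on none, whereas 4 of 6 genes specific to mating type a (STE2, STE6, BAR1 and ASG7) lay below it on all 8, MFA1 above it on 7 and MFA2 above it on all 8. Such positions come from different probes and settle no mating type. Between the groups, the alpha-specific SAG1 was higher in the arrays labelled V81G by 1.77 ± 0.13 (adjusted p = 4.25e-05) and the a-specific STE2 by 1.14 ± 0.13 (adjusted p = 0.000408) and STE6 by 0.61 ± 0.17 (adjusted p = 0.0362). On V81G and wild-type arrays the mean of the alpha list ran from 11.55 to 12.34 and from 11.24 to 11.76, and that of the a list from 9.68 to 9.87 and from 9.03 to 9.53. The part of strain identity in the results was not tested. In cultures, a change per cell and a change in the share of cells at one stage of growth cannot be told apart.

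Among the members, the genes of the MAP kinase, of its transcription factor Rlm1 and of the Slt2-like protein were higher in the arrays labelled V81G. SLT2, RLM1 and KDX1 rose, no member fell, and 7 did not pass the test, against 9.21% of all measured genes called higher and 12.3% called lower. For 5 of the 10 members (SLT2, RLM1, KDX1, MKK2 and SWI4) every array labelled V81G lay above every array labelled wild-type, which held for 11.5% of all measured genes (16.7% separated the other way). The median difference of the members was 0.28, beside -0.08 for all measured genes. SDs within groups ran from 0.09 to 0.49, and 7 members varied more in the group labelled V81G.

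**Figure D1:**
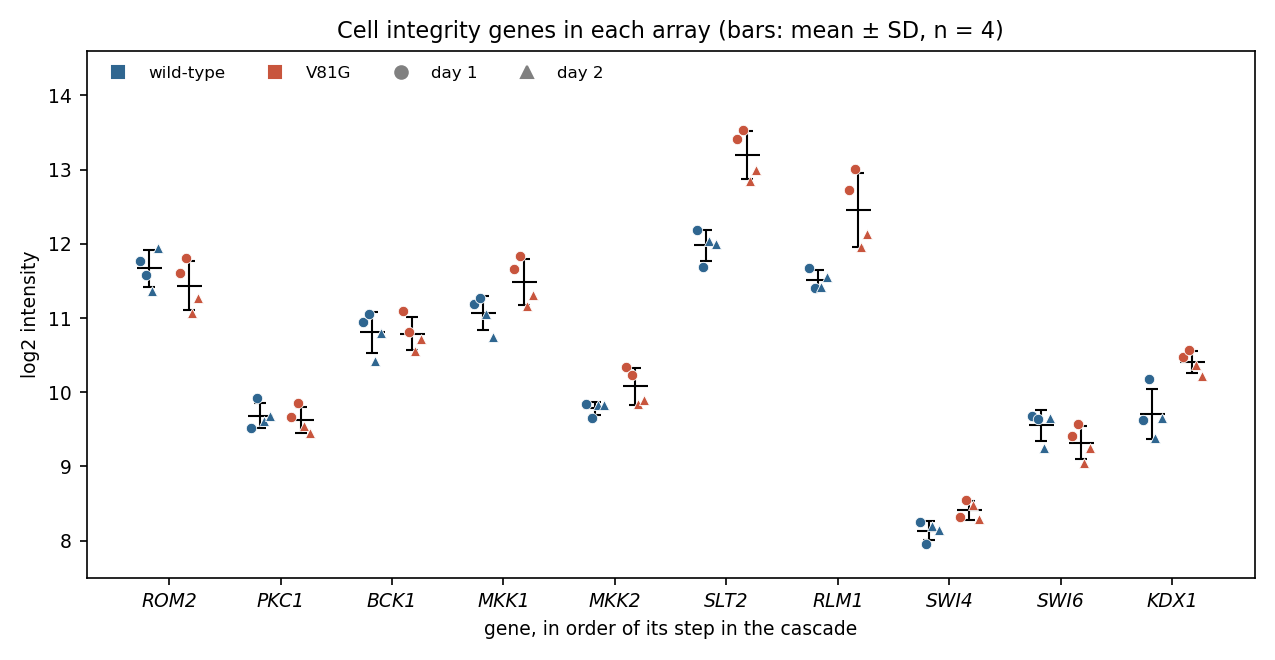
Log2 intensity (vertical axis) of the 10 cascade genes (horizontal axis, upstream to downstream) on each array, with circles for day 1, triangles for day 2, and black bars for the mean ± SD of 4 arrays. Heights are comparable only within a gene; the groups separate by 0.66 for SLT2 and by 0.27 for RLM1, and by at most 0.04 for KDX1, MKK2 and SWI4.

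At the top of the cascade no difference passed the test. ROM2, the Rho1 exchange factor gene, read 11.60, 11.80, 11.07 and 11.26 on the arrays labelled V81G 1 to 4 and 11.77, 11.58, 11.37 and 11.95 on those labelled wild-type 1 to 4. The groups overlapped, and the difference of -0.23 ± 0.19 had an adjusted p of 0.482. PKC1, the protein kinase C gene, read 9.67, 9.85, 9.54 and 9.45 against 9.52, 9.92, 9.61 and 9.68. Its group ranges overlapped over most of their width. The difference of PKC1 was -0.053 ± 0.14 (95% interval -0.37 to 0.26, adjusted p = 0.854). BCK1, the first kinase of the MAP kinase module, read 11.09, 10.81, 10.55 and 10.71 against 10.95, 11.06, 10.42 and 10.80, and in both groups the lowest array was replicate 3. Its difference was -0.019 ± 0.17 (95% interval -0.41 to 0.37, adjusted p = 0.966). The intervals leave room for changes of BCK1 and PKC1 of up to 0.41 and 0.37 in size on the log2 scale.

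The paralogous genes MKK1 and MKK2 encode the kinases that phosphorylate Slt2. MKK1 read 11.65, 11.84, 11.16 and 11.31 on the arrays labelled V81G and 11.19, 11.27, 11.06 and 10.75 on those labelled wild-type. The upper V81G arrays were those of day 1, and the groups overlapped by 0.11. The difference of MKK1, 0.42 ± 0.18, missed the threshold (adjusted p = 0.153). A fit that took the hybridization day as a block called MKK1 higher (adjusted p = 0.0277), together with SLT2, RLM1 and KDX1 and 12.5% of all measured genes. A block for the replicate number left it above the threshold (adjusted p = 0.0637). By fluidics station the difference of MKK1 was 0.063 on station 1 (adjusted p = 0.788). On station 2, where only 1 wild-type array ran, it was 1.00. The station fits compare groups across days. Station 2 held V81G arrays of day 1 and a wild-type array of day 2. Station 1 held V81G arrays of day 2 and wild-type arrays of both days. With array weights the difference of MKK1 was 0.22 (adjusted p = 0.307). MKK2 read 10.34, 10.24, 9.84 and 9.90 against 9.84, 9.66, 9.82 and 9.83, so its groups touched without overlapping. The difference was 0.29 ± 0.14 (adjusted p = 0.213), made up of 0.54 on day 1 and 0.045 on day 2. The changes of MKK1 and MKK2 were not told apart by the spread of the arrays. The within-array difference of MKK1 minus MKK2, relative to the wild-type mean, was 0.13 ± 0.13 (SD, n = 4) on V81G arrays and lay between -0.36 and 0.33 on wild-type arrays (exact permutation p = 0.457, two-sided, also 0.457 after adjustment over 3 such measures).

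SLT2, the MAP kinase gene (YHR030C), showed the largest difference of the 10. It read 13.41, 13.53, 12.85 and 12.99 on the arrays labelled V81G and 12.19, 11.69, 12.04 and 11.99 on those labelled wild-type. Every array labelled V81G lay at least 0.66 above every array labelled wild-type. The means were 13.20 ± 0.33 and 11.98 ± 0.21 (SD, n = 4 each), and SLT2 rose by 1.22 ± 0.18 (2.33-fold, limma adjusted p = 0.0018). Ordered from the most positive difference to the most negative, SLT2 stood 95th of the 5656 measured genes. The call held in every fit that left out 1 array, where the difference ranged from 1.11 to 1.33.

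SLT2 is the only member on chromosome VIII, whose genes as a whole were higher in the arrays labelled V81G. Of the 259 measured genes of that chromosome 41.3% were called higher, and the other 258 had a median difference of 0.46, with quartiles of 0.23 and 0.83, beside -0.09 for the other nuclear chromosomes. SLT2 ranked 23rd of the 259. Among the 5 nearest measured genes on each side, 4 were called higher and none lower, with a median of 0.43. The adjoining RRM3, a DNA helicase gene, differed by 1.33 ± 0.20 (adjusted p = 0.0017) and ERC1, a transporter gene next to it, by 0.93 ± 0.16 (adjusted p = 0.0032). On the other side YHI9 had a difference of -0.50 ± 0.20 (adjusted p = 0.119), and DAP2, a vacuolar aminopeptidase gene, rose by 0.77 ± 0.18 (adjusted p = 0.0161). PIH1, which encodes a part of a chaperone complex, rose by 0.60 ± 0.16 (adjusted p = 0.0328). The other neighbours did not pass, namely NEL1 (0.48), RPN1 (0.38), THR1 (0.26), VMA16 (0.10) and YHR033W (-0.054). The neighbours spanned -0.50 to 1.33, a range that contains SLT2.

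SLT2 also stood above the median of its chromosome. Each array's SLT2 value less the median of the other chromosome VIII genes, all relative to wild-type means, was 1.04, 1.08, 0.33 and 0.46 on the arrays labelled V81G and 0.16, -0.09, -0.04 and -0.08 on those labelled wild-type. The wild-type values lie near 0 by construction, and the V81G values of day 1 were higher than those of day 2. The difference was 0.74 (permutation p = 0.0286, two-sided, the smallest that 4 against 4 arrays allow). It did not pass after adjustment over the 3 within-array measures (adjusted p = 0.0857). The centring on wild-type means was not redone in each permutation, so this p is not exact. The part of chromosome VIII in the rise of SLT2 was not tested beyond these values.

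**Figure D2:**
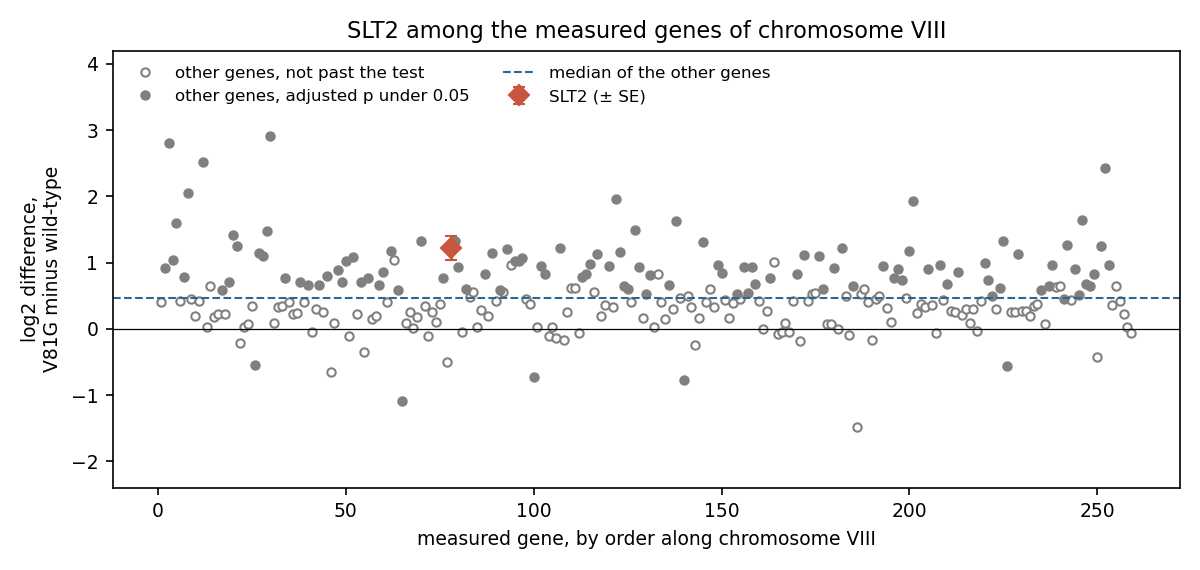
Log2 difference, V81G minus wild-type (vertical axis), of the 259 measured genes of chromosome VIII in their order along it (horizontal axis, gene rank). SLT2, the diamond with its SE, lies at 1.22, above the dashed median of the other genes at 0.46, and filled circles mark genes past the test.

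RLM1, the gene of the transcription factor activated by Slt2, lies on chromosome XVI. It read 12.73, 13.00, 11.95 and 12.13 on the arrays labelled V81G and 11.68, 11.41, 11.41 and 11.55 on those labelled wild-type. The wild-type arrays lay close together, whereas the V81G arrays of day 1 stood 0.82 above those of day 2 on average. RLM1 rose by 0.94 ± 0.22 (1.92-fold, limma adjusted p = 0.0179), and its call held in each fit without 1 array (largest adjusted p = 0.0492).

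KDX1, a target of Rlm1 on chromosome XI, read 10.48, 10.57, 10.37 and 10.22 on the arrays labelled V81G. On the arrays labelled wild-type it read 9.63, 10.18, 9.38 and 9.65. The groups were separated only by the gap between V81G 4 and wild-type 2, at 0.03. KDX1 rose by 0.70 ± 0.18 (1.62-fold, limma adjusted p = 0.0235). The call was lost without V81G 1, V81G 2, wild-type 1, wild-type 3 or wild-type 4 (adjusted p = 0.0558, 0.0601, 0.0694, 0.0624 and 0.0616), while the difference stayed between 0.59 and 0.85. SLT2 minus KDX1 within arrays, relative to wild-type means, was higher by 0.52 in the arrays labelled V81G, and the groups overlapped (exact permutation p = 0.0857, two-sided, adjusted p = 0.129).

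SWI4 and SWI6 encode the subunits of SBF, in which Swi4 binds DNA. SWI4 read 8.31, 8.56, 8.48 and 8.29 on the arrays labelled V81G and 8.25, 7.95, 8.19 and 8.14 on those labelled wild-type. The groups did not overlap, with a gap of 0.04. The difference of 0.27 ± 0.13 had an adjusted p of 0.179. Both means lay under 8.74, the limit used to leave out dim probe sets. SWI6 read 9.41, 9.57, 9.05 and 9.25 against 9.68, 9.64, 9.25 and 9.65, with overlapping groups. Its difference was -0.23 ± 0.16 (adjusted p = 0.377).

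Values of several members differed between the hybridization days. In the arrays labelled V81G all 10 genes were lower on day 2 than on day 1, whereas in those labelled wild-type 3 of them were higher on day 2. Medians of the V81G arrays were 10.21 and 10.19 on day 1 and 10.15 and 10.16 on day 2. Those of the wild-type arrays were 10.13 and 10.215, then 10.10 and 10.10. Group differences had the same sign on both days for 7 of the 10 members. Neither count was made over all measured genes. SLT2 differed by 1.53 on day 1 and by 0.90 on day 2, RLM1 by 1.32 and 0.56, and KDX1 by 0.62 and 0.77. Tested as a group by day interaction, none of the members passed (limma adjusted p of 0.186 or more), although 3 had an unadjusted p under 0.05, namely RLM1 (0.0123), MKK2 (0.0353) and SLT2 (0.0402). At an adjusted p under 0.05, 1.86% of all measured genes passed that interaction test. The share of all genes with an unadjusted p under 0.05 was not counted, so the 3 members have no share beside them. On day 1 the arrays labelled V81G ran on fluidics station 2 and those labelled wild-type on station 1. Station and group cannot be told apart on that day. The V81G arrays of day 2 ran on station 1, so within that group day and station cannot be told apart either. A difference between days in that group is thus also one between stations. With the station as a block SLT2 differed by 1.14, RLM1 by 0.82 and KDX1 by 0.67, and all 3 remained called.

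**Figure D3:**
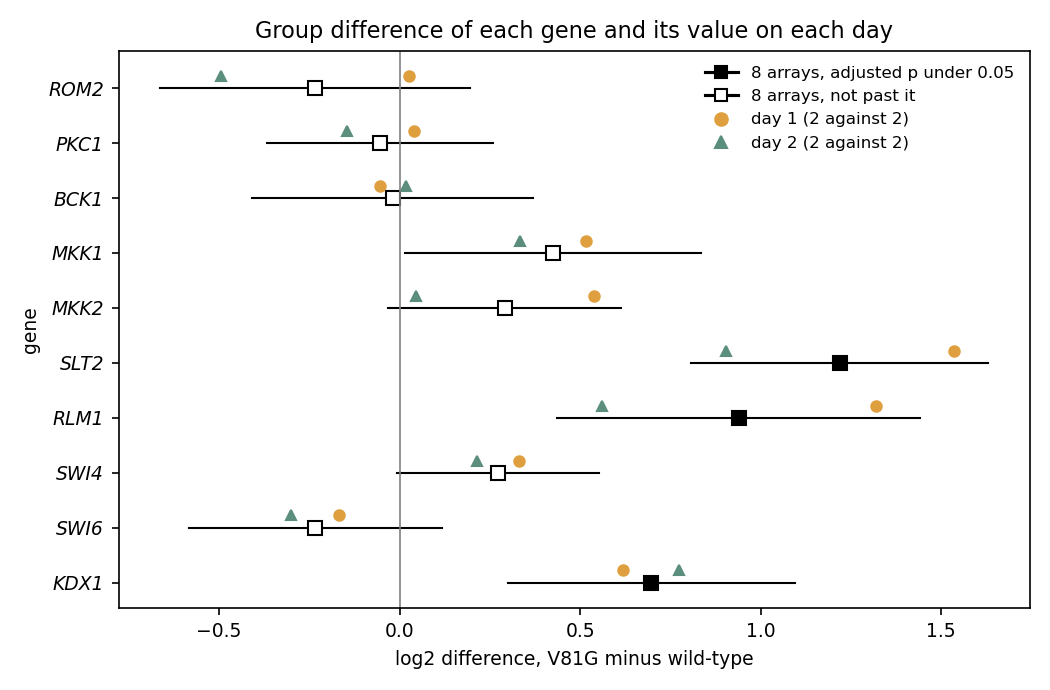
Log2 difference, V81G minus wild-type (horizontal axis), of each cascade gene, with squares for all 8 arrays, lines for the 95% interval, and circles and triangles for the differences within day 1 and day 2. The filled squares of SLT2, RLM1 and KDX1 lie at 1.22, 0.94 and 0.70, and the day values of SLT2 and RLM1 lie farther apart (1.53 and 0.90, 1.32 and 0.56) than those of KDX1 (0.62 and 0.77).

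Genes that act above and around the cascade were counted in lists chosen from general knowledge. None of the 64 genes of the 6 lists lies on chromosome VIII. Their counts stand beside the shares over all measured genes, 9.21% higher and 12.3% lower. Of 15 genes for sensors, Rho1 and its regulators, none rose, 2 fell and 13 did not pass, with a median of -0.14. LRG1, a GTPase-activating protein gene for Rho1, fell by 0.53 ± 0.12 (adjusted p = 0.0149), with both means under the dim limit. LRG1 did not pass on day 1 alone (-0.48, limma adjusted p = 0.124) or on station 1 alone (-0.47, limma adjusted p = 0.0846). The exchange factor gene TUS1 differed by -0.17 ± 0.19 in its brightest probe set, while 1 of its 5 other probe sets was called lower, at -0.46 ± 0.14 (adjusted p = 0.0454). RHO1 and ROM1 were singled out after their values were seen. RHO1 read 12.63, 12.66, 12.41 and 12.45 against 12.69, 13.01, 13.14 and 12.95. All arrays labelled V81G lay below those labelled wild-type, yet the difference of RHO1, -0.41 ± 0.14, missed the threshold (adjusted p = 0.0669). RHO1 was called lower once the day entered as a block (adjusted p = 0.0469) or wild-type 1 was left out (adjusted p = 0.0472). Array weights (adjusted p = 0.0323) and day 2 alone (-0.61, limma adjusted p = 0.0343) also called it. Day 1 alone (-0.21, limma adjusted p = 0.506), quantile normalization (-0.32, adjusted p = 0.149) and the replicate block (adjusted p = 0.0892) did not. ROM1, the paralog of ROM2, differed by 0.69 ± 0.26 without passing (adjusted p = 0.105). ROM1 was called higher under both blocks (adjusted p = 0.0127 for the day and 0.0403 for the replicate number) and on day 1 alone (0.98, limma adjusted p = 0.0413). Fits with array weights (0.29, adjusted p = 0.368) or the station as a block (0.57, adjusted p = 0.134) did not call it. Neither did station 1 alone (0.19, limma adjusted p = 0.541).

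Of 6 genes for phosphatases and scaffolds of the pathway, none passed the test in its brightest probe set, with differences from -0.25 to 0.17. They include SDP1 (0.0051 ± 0.18) and MSG5 (0.07 ± 0.13), which encode phosphatases that act on Slt2. PTP2, a tyrosine phosphatase gene, differed by 0.17 ± 0.23 in its brightest probe set, while 1 of its 4 other probe sets was called higher, at 0.47 ± 0.13 (adjusted p = 0.0352). The 6 other probe sets of SPA2, also in this list, gave differences from -0.55 to -0.081, and none passed. Among 9 kinases of the other MAP kinase cascades 2 rose and none fell, with a median of -0.11. SSK22, a kinase gene of the osmotic stress branch, rose by 0.67 ± 0.16 (adjusted p = 0.0160), a call lost without wild-type 1 (adjusted p = 0.0534). KSS1, the MAP kinase gene of filamentous growth, rose by 0.50 ± 0.15 (adjusted p = 0.0421), with both means under the dim limit. KSS1 lost its call with median centring (adjusted p = 0.0790), quantile normalization (adjusted p = 0.0840), in the replicate-blocked fit (adjusted p = 0.0513) and without any single array except V81G 1 (adjusted p = 0.0653 to 0.112). HOG1, the MAP kinase gene of the osmotic stress pathway, gave a difference of -0.51 ± 0.18 short of the threshold (adjusted p = 0.0903). HOG1 was called lower with a fluidics station block (-0.62, adjusted p = 0.0110), with array weights (-0.69, adjusted p = 0.00684), on day 2 alone (-0.82, adjusted p = 0.0359) and on station 1 alone (-0.66, adjusted p = 0.0358), against -0.20 on day 1.

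**Figure D4:**
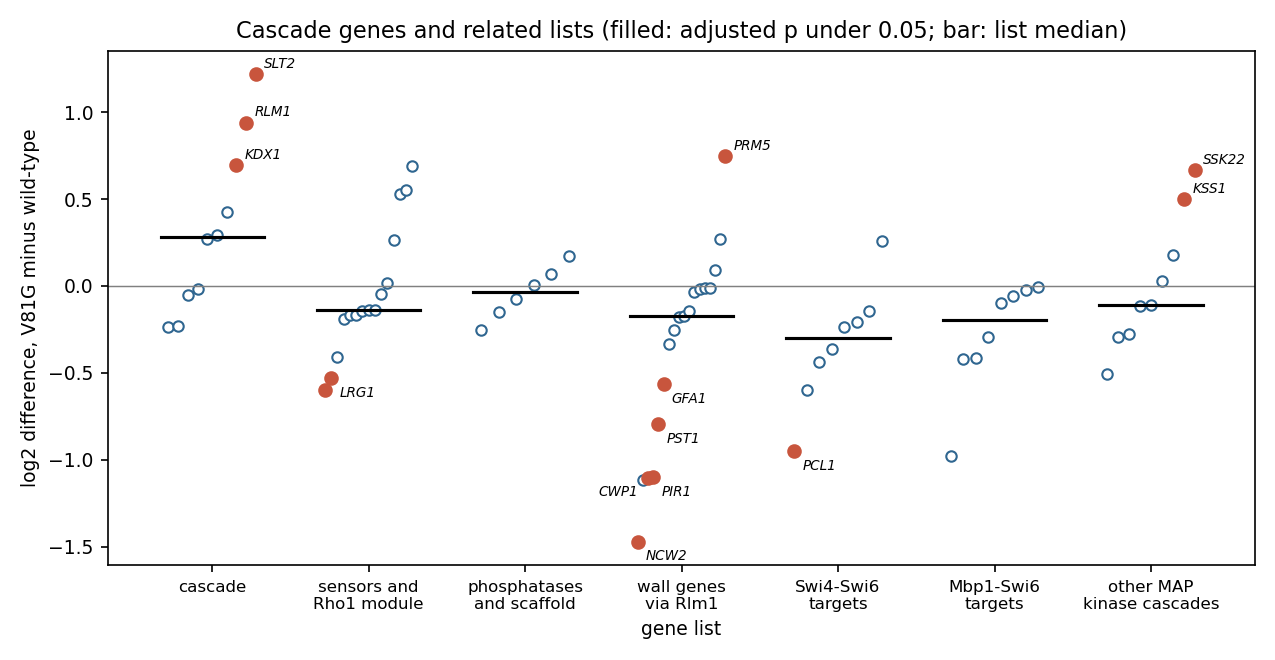
Log2 difference, V81G minus wild-type (vertical axis), of each gene in the cascade and in the 6 related lists (horizontal axis), with filled points for genes past the test, all but 1 of them named, and bars for list medians. In the cascade the called genes are SLT2, RLM1 and KDX1, all above 0, and among the wall genes 5 called genes lie below 0 and PRM5 above it.

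Among wall genes that respond to the cascade through Rlm1, the members that passed the test ran in both directions. Of 18 genes 1 rose, 5 fell and 12 did not pass, with a median of -0.17, where all measured genes had 9.21% higher, 12.3% lower and a median of -0.08. PRM5, a membrane protein gene used as a marker of pathway activity, was the one that rose. It read 11.77, 12.34, 11.61 and 11.60 on the arrays labelled V81G and 11.34, 11.18, 10.96 and 10.85 on those labelled wild-type. The groups were 0.26 apart, and PRM5 rose by 0.75 ± 0.19 (adjusted p = 0.0236). Its call was lost without wild-type 3 (adjusted p = 0.0631) or wild-type 4 (adjusted p = 0.0693). PRM5 also did not pass on day 1 alone (0.79, limma adjusted p = 0.0868) or on station 1 alone (0.45, limma adjusted p = 0.101).

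The 5 wall genes that fell over all arrays had negative differences on both days, although on a single day GFA1 passed on neither (adjusted p = 0.20 and 0.0667) and PST1 did not pass on day 1 (adjusted p = 0.0979). NCW2, a wall mannoprotein gene, read 11.40, 11.52, 11.44 and 11.54 on the arrays labelled V81G and 13.07, 12.93, 12.82 and 12.95 on those labelled wild-type. The gap between its groups, 1.29, was larger than the range within either of them, and NCW2 fell by 1.47 ± 0.11 (2.77-fold, adjusted p = 4.94e-05). The mannoprotein gene CWP1 fell by 1.10 ± 0.14 (adjusted p = 0.000636) and PIR1, of the proteins linked to wall glucan through internal repeats, fell by 1.10 ± 0.13 (adjusted p = 0.000524). PST1, a gene for a GPI-anchored protein secreted by regenerating protoplasts, fell by 0.80 ± 0.16 (adjusted p = 0.0075). GFA1, which encodes the first enzyme of chitin precursor synthesis, fell by 0.57 ± 0.15 (adjusted p = 0.0307). Its call was lost without V81G 1, V81G 3, V81G 4, wild-type 1 or wild-type 4 (adjusted p = 0.0727, 0.0708, 0.0814, 0.0700 and 0.0599). The glucan synthase genes FKS1 and GSC2 differed by -0.014 ± 0.12 and -0.14 ± 0.16 in their brightest probe sets, and none of their 7 and 6 other probe sets passed. All 7 others of FKS1 gave negative differences, from -0.47 to -0.044, and the 6 others of GSC2 ran from -0.31 to 0.36. The brightest FKS1 probe set lay at 14.96 and 14.97, where the maximum over all arrays was 15.43.

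**Figure D5:**
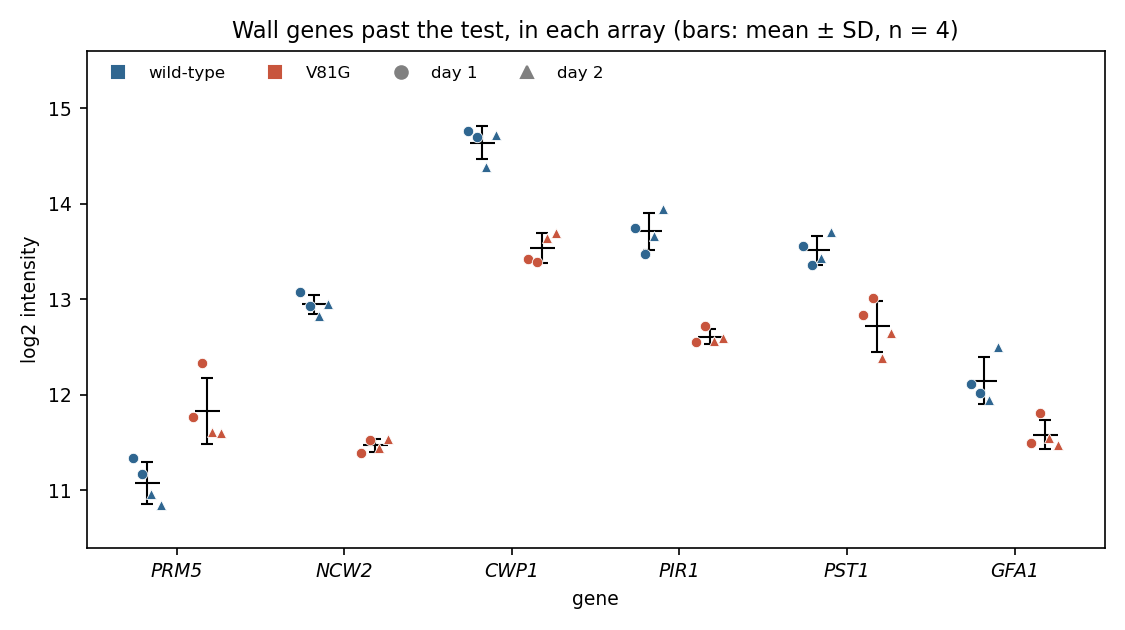
Log2 intensity (vertical axis) of the 6 wall genes past the test (horizontal axis) on each array, with circles for day 1, triangles for day 2, and bars for the mean ± SD of 4 arrays. PRM5 is higher on every array labelled V81G, and NCW2, CWP1, PIR1, PST1 and GFA1 are lower on every one.

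CIS3, a wall gene related to PIR1 and singled out after its values were seen, differed between the days. It read 13.36, 13.16, 14.72 and 14.88 on the arrays labelled V81G and 15.17, 15.07, 15.15 and 15.20 on those labelled wild-type. The V81G arrays of day 1, which ran on fluidics station 2, were far below the others, and no group overlap was seen. Over all arrays the difference was -1.12 ± 0.37 (adjusted p = 0.0642). Blocking on day or replicate number (adjusted p = 0.0128 and 0.0400), or leaving out V81G 3 (adjusted p = 0.0375) or V81G 4 (adjusted p = 0.0234), brought CIS3 under the threshold. It stayed above the threshold with array weights (-0.60, adjusted p = 0.152) and with the station as a block (-0.91, adjusted p = 0.0592). The same held without any other single array (largest adjusted p = 0.145). The difference was -1.86 on day 1 and -0.38 on day 2, a change of 1.48 ± 0.21 between days that passed the interaction test (limma adjusted p = 0.0185). The wild-type values of CIS3 lay close to the maximum of 15.43.

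Targets of the Swi6 complexes were counted as well. Of 8 SBF targets none rose and 1 fell, with a median of -0.30. PCL1, a cyclin gene of the start of the cell cycle, read 8.35, 8.53, 8.57 and 8.84 against 9.72, 9.61, 9.16 and 9.59, without overlap, and fell by 0.95 ± 0.16 (adjusted p = 0.0034). The mean in the arrays labelled V81G lay under the dim limit. On day 2 alone PCL1 did not pass (-0.67, limma adjusted p = 0.0667). The G1 cyclin genes CLN1 and CLN2 differed by -0.60 ± 0.26 (adjusted p = 0.163) and -0.44 ± 0.13 (adjusted p = 0.0506), neither past the threshold. CLN2 was called lower with a day block (adjusted p = 0.0303), and without V81G 3 both CLN1 (adjusted p = 0.0134) and CLN2 (adjusted p = 0.0433) were. Of MBP1 and 7 targets of its complex with Swi6 (MBF), none passed, with a median of -0.19. RNR1, the ribonucleotide reductase gene, was chosen with its values already known. It read 11.08, 11.05, 12.36 and 12.65 against 12.80, 12.59, 12.82 and 12.86, so that the V81G arrays of day 1 lay apart from the rest. The difference of RNR1 over all arrays was -0.98 ± 0.35 (adjusted p = 0.0863). It was called lower in the day-blocked and replicate-blocked fits (adjusted p = 0.0147 and 0.0438), and without V81G 4 (adjusted p = 0.0242). With the station as a block it was not called (-0.79, adjusted p = 0.0898). Its difference was -1.63 on day 1 and -0.33 on day 2, and this interaction passed (limma adjusted p = 0.0373). The day medians were -0.53 and -0.08 for the SBF targets and -0.44 and -0.0027 for the MBF list. Those of all measured genes were -0.036 and -0.11, so on day 2 neither list lay below them.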

How the data were processed

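The values deposited by the authors are intensities per probe set, not logged (range 89.9 to 44207). RMA made them, per the submitters' processing notes, with no version. Any later scaling is not stated. Hybridization day and fluidics station came from the run sheets. Control probe sets (60) did not enter the fits. Genes were named through the platform annotation and the RefSeq gene table of assembly R64 by gene ID (6504 probe sets with 1 symbol, all matched, 328 with several, 2443 not listed), and the brightest probe set stood for a gene. RefSeq coordinates gave only chromosome and gene order.

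Log2 values were fitted by the lmFit and eBayes functions of limma (version 3.58.1, R 4.3.3; 8 arrays, with a single group term and a two-sided test), a step also tested on simulated data. Single within-array measures used permutation tests over all splits of the arrays, exact except for SLT2 beside its chromosome. Members and lists were chosen with earlier results of these data known. Named were all members, up to 5 called genes per list and direction, the 5 neighbours of SLT2 on each side and the 3 genes closest to each called member; 1 called gene of the sensor list is not reported here. The arrays of a group are labelled biological replicates, and no pair held identical values. Replicate numbers come from the sample titles, and by the rule used same-numbered arrays were taken as pairs for the replicate block. Deviations of same-numbered arrays correlated at 0.228 to 0.436, beside 0.222 to 0.343 for other arrays of the same day. Across days the correlations were -0.409 to -0.139. Only for V81G 3 did the same-numbered wild-type array correlate more than the other wild-type array of that day. The values thus show a shared day and do not show pairs by number.

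Alternatives were the day or replicate number as a block, single days, median centring, quantile normalization, an offset of 50, a limit on dim probe sets (20th percentile of means), array weights, no chromosome VIII, each array left out and, added after seeing the data, the fluidics station.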

Additional observations from a re-analysis of the deposited data

Results flagged for a closer look

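Among 70 groups of 4 arrays examined, 3 held an array whose distance from the rest passed Dixon's 95% critical value, where chance gives about 1 in 20. MKK2 read 9.66 on the array labelled wild-type 2, below the other wild-type arrays at 9.82 to 9.84. SWI6 read 9.25 on wild-type 3, against 9.64 to 9.68 on the others, and CWP1 read 14.38 on that same array, against 14.70 to 14.76.

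For 2 listed genes the group difference itself differed between the hybridization days by limma's interaction test. It was smaller in size on day 2 by 1.48 ± 0.21 for CIS3 and by 1.30 ± 0.22 for RNR1. No member of the cascade passed this test. Within the V81G group hybridization day and fluidics station coincide, so the test does not separate them.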

How the results depend on the processing

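SLT2 kept its rise and its call under every alternative run (0.90 to 1.53, adjusted p of 0.0176 or less). RLM1 did so except on fluidics station 1 alone (0.54, adjusted p = 0.0558), where 1 member was called higher. KDX1 lost its call on day 1 alone (0.62, adjusted p = 0.145) and on station 1 alone (0.56, adjusted p = 0.168). Without 1 array 2 to 3 members were called higher and none lower, and KDX1 ranged from 0.59 to 0.85. Differences near 0 changed sign: PKC1 on day 1 (0.040) and station 2 (0.084), BCK1 on day 2 (0.017) and station 2 (0.15), ROM2 on day 1 (0.027), and the eIF5A gene ANB1 on station 2 (-0.18, against 0.13). Without 1 array PKC1 ranged from -0.13 to 0.026 and BCK1 from -0.15 to 0.065. With the day as a block, 2 genes of the sensor list were called higher, ROM1 and PKH2 (adjusted p = 0.0340), and 3 lower with RHO1 added, 7 wall genes lower with CIS3 and BGL2 (adjusted p = 0.0422, against 0.0968 without the block) added, 2 SBF targets (PCL1 and CLN2) lower and 1 MBF gene (RNR1) lower. Under the day block 705 of all 5656 measured genes were called higher and 1033 lower. With the replicate block 1 sensor gene was called higher and 2 lower. It also gave 6 wall genes, 1 SBF target and 1 MBF gene lower, and 1 kinase of the other cascades higher. The replicate block changed no call of a member, and over all 5656 genes it called 563 higher and 777 lower. Fewer arrays enter the day and station fits, and station 2 holds 1 wild-type array. The station fits also set V81G arrays of a single day against wild-type arrays of the other day or of both days. The causes were not tested otherwise. No member has a further probe set, so that alternative was not run.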

Other observations

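Genes whose course over the 8 arrays, relative to their own wild-type mean, lay closest to a called member were found by the root mean square of the log2 difference. For SLT2 they were APM2 and CRG1, also on chromosome VIII, at 0.09 and 0.11, and ALR2, a magnesium transporter gene on chromosome VI, at 0.13. For RLM1 they were YAP1801 (0.07), an endocytic adaptor gene on chromosome VIII, ADY3 (0.12), a sporulation gene, and HAL1 (0.15), a salt tolerance gene. For KDX1 they were UBC12 (0.12), which encodes the conjugating enzyme of the ubiquitin-like protein Rub1, YKL222C (0.13) and the flocculin gene FLO10 (0.13), the latter pair being on chromosome XI as is KDX1.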
